A study of Mus musculus with 20 samples.

Results

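Distal elements with H3K27ac in the fetal peak list and none in the adult list were examined in mouse hematopoietic stem cells (HSCs). There were 6790 such elements among 76507 merged H3K4me1 and H3K27ac regions on chromosomes 1 to 19. H3K4me1 and H3K27ac peaks of both stages were merged where they shared at least 1 bp. The 19511 merged regions that overlapped an H3K4me3 peak of either stage were dropped, which left 56996 distal regions. The elements were chosen by their peaks: each overlapped at least 1 fetal H3K27ac peak and no adult H3K27ac peak. Of the other distal regions, 3351 had H3K27ac at both stages, 927 had it in the adult list only and 45928 had H3K4me1 without H3K27ac. Thus 11068 distal regions were acetylated at 1 stage or both, and the share with H3K27ac in the fetal list only was 61.3%. That share follows from the choice and is a description.

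H3K27ac is laid down by the acetyltransferases CBP and p300 and marks active enhancers and promoters. H3K4me1 is written largely by MLL3 and MLL4 and marks enhancers whether or not they are active, so that an element with H3K4me1 and no H3K27ac is often termed primed. H3K4me3 marks promoters, and H3K27me3 is written by Polycomb repressive complex PRC2 and marks repressed regions. Fetal liver HSCs are known to divide often and expand, whereas most adult bone marrow HSCs are quiescent, and enhancer use is known to change with that switch.

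Chromatin was profiled by ChIP-seq for these 4 marks in B6129SF1 mice, and the labels name no gene deletion or treatment. The fetal group was HSCs of embryonic day 14.5 fetal liver, and the adult group HSCs of bone marrow from mice aged 6 to 8 weeks. Both groups were sorted as Lin-Sca1+cKit+CD135- cells, 50000 cells per ChIP. CD135, or Flt3, is a receptor of multipotent progenitors, and no further marker that would narrow the gate to long-term HSCs is named in the labels. The labels list 20 samples in 10 groups of 2 replicates, including 4 input samples that were not analysed here. The data used were 8 peak lists, 1 per mark and stage, named as combined and taken here as pooled over the replicates. No replicate error, no test between stages and no p-value can therefore be given, and stage cannot be told apart from library or depth. The lists carry no gene names, so that the labelled cell type was not tested against markers and elements are given by position in mm9, the build in the submitters' processing notes.

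On chromosomes 1 to 19 the fetal and adult lists held 23368 and 17834 peaks for H3K27ac, 92339 and 12502 for H3K4me1, 16567 and 16156 for H3K4me3, and 14579 and 22831 for H3K27me3. Read depth is unknown. The peak score is the authors' own, has no stated unit and starts at 50 in every list, so that an adult peak under that floor would leave an element in the fetal-only class. Scores were ranked within 1 list and never compared between lists. Intervals in parentheses are 95% Clopper-Pearson intervals over regions. They cover counting error only, and neighbouring regions are not independent.

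The fetal-only elements were narrower than the distal regions acetylated at both stages. Their width ran from 383 to 8289 bp with a median of 1613.5 bp and quartiles of 1167 and 2164 bp. Regions acetylated at both stages had a median of 2665 bp, and those acetylated in the adult list only 1242 bp. An element was usually 1 fetal H3K27ac peak, and 110 of 6790 held more than 1. H3K27ac covered a median of 99.8% of an element, with a lower quartile of 82.6%, and H3K4me1 the rest.

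Most of the elements ranked low in the fetal H3K27ac list. The highest H3K27ac score in an element had a median of 110.3 and quartiles of 72.6 and 197, against a median of 337 for regions acetylated at both stages. Ranked among all fetal H3K27ac peaks, the median element stood at percentile 23.7 and the highest at 91.6, whereas the median region acetylated at both stages stood at 53.6. No element reached a score of 3100, where values pile up, which 45 of the 3351 regions acetylated at both stages did. By quartile of the fetal list, 3553 elements had a score in the lowest quartile, up to 116. A further 2356 lay in the next quartile, 797 in the third and 84 in the highest, above 846. Of the distal regions with fetal H3K27ac, 87.3% were fetal only in the lowest quartile and 11.6% in the highest. Score and width of the H3K27ac peak went together across the 6790 elements (Spearman's rho 0.876), both being read from the same peak. These values belong to the contrast that chose the elements and are descriptions.

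**Figure D1:**
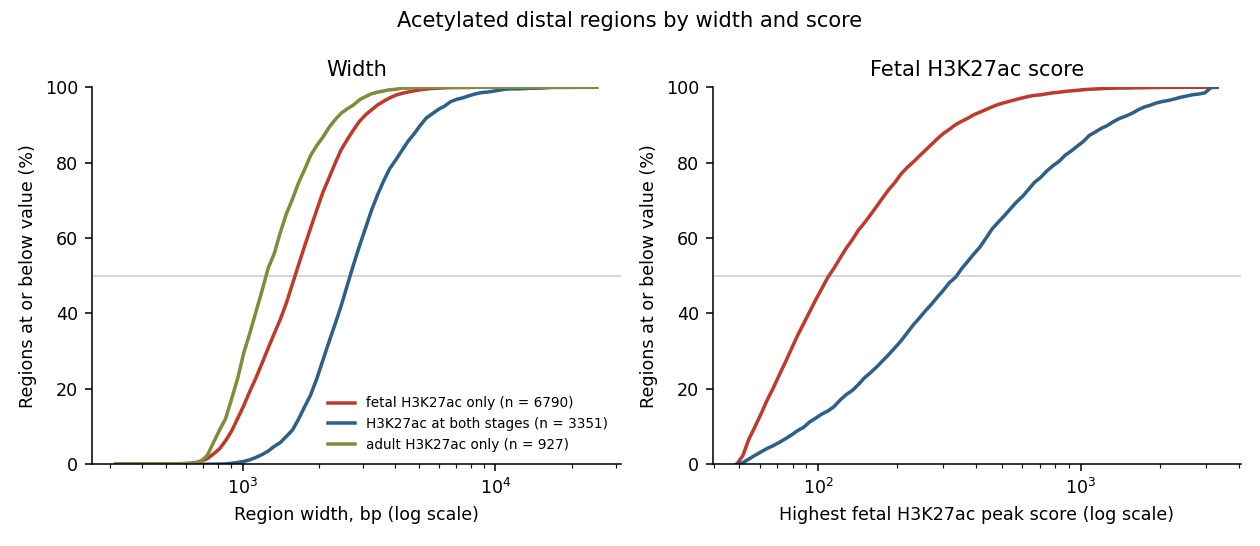
Cumulative share of acetylated distal regions (y axis, %) by region width (left, bp, log scale) and by the highest fetal H3K27ac score in the region (right, log scale); each line is 1 class and the grey line marks the median. Fetal-only elements have a median width of 1613.5 bp and a median score of 110.3, to the left of regions acetylated at both stages at 2665 bp and 337.

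The elements highest in rank or width show the range of the class. The widest lay at chr17:5800574-5808862 (8289 bp), with an H3K27ac score of 869.9. It held 3 fetal H3K4me1 peaks that covered 5517 bp and 2 adult H3K4me1 peaks that covered 492 bp. It was also the widest element with H3K4me1 at both stages and the widest with H3K27me3 at both stages, which covered 1225 bp in the fetal and 500 bp in the adult list. The fetal list thus had H3K27ac, H3K4me1 and H3K27me3 on the same element, which lay 29518 bp from the nearest fetal H3K4me3 peak.

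The element at chr13:112767780-112775905 (8126 bp) was a single H3K27ac peak with a score of 1172. It lay 108656 bp from fetal H3K4me3 and 14132 bp from adult H3K27ac, and had adult H3K4me1 over 318 bp. The element at chr12:80938015-80945926 (7912 bp) had the highest score of all, 2061, which is percentile 91.6 of the fetal list. Fetal H3K4me1 covered 6800 bp of it and adult H3K4me1 179 bp, and the nearest H3K4me3 and adult H3K27ac peaks were both about as far away, at 120076 and 120132 bp. The element at chr4:95511496-95518648 (7153 bp, score 1862) was alike in these respects, with 6649 bp of fetal and 146 bp of adult H3K4me1 and a gap of 114528 bp to fetal H3K4me3.

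The element at chr6:115855254-115862315 (7062 bp, score 1970.3) was almost wholly covered by fetal H3K4me1, over 6548 bp, and had no adult H3K4me1. Among the 5 highest scores were also chr1:89723387-89727161 (3775 bp, score 2039) and chr13:83202946-83208464 (5519 bp, score 1993). Neither had adult H3K4me1. The latter lay 448052 bp from fetal H3K4me3 and 448140 bp from adult H3K27ac. Of these 7 elements, 4 carried a peak of adult H3K4me1 and 3 did not, so that high fetal acetylation went with either state in the adult list.

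H3K4me1 was found at most of the elements in the fetal list and at few in the adult list. In the fetal list 5835 elements, or 85.9% (85.1 to 86.8), had it, against 88.0% of all acetylated distal regions, the elements included, and 96.8% (96.2 to 97.4) of those acetylated at both stages. In the adult list 1105 elements, or 16.3% (15.4 to 17.2), had it, against 28.0% of all acetylated distal regions and 51.7% (49.9 to 53.4) of those acetylated at both stages. The mark was in the fetal list only at 4746 elements, or 69.9%, where the share over all acetylated distal regions was 60.6%. It was at both stages at 1089 and at neither stage at 939, and 16 elements had it in the adult list alone. The size of the H3K4me1 lists moves with this difference between stages, and its part was not tested. Regions acetylated in the adult list only had fetal H3K4me1 at 71.7% and adult H3K4me1 at 28.4%, so that here too the fetal list had the mark more often. When the longer list of each mark was trimmed to its highest scores to match the length of the shorter, the rule gave a different set of 3427 elements, of which 42.5% had fetal and 20.9% adult H3K4me1. The adult H3K4me1 list, being the shorter, was not trimmed. Among the 6790 elements the adult share was 9.19% when at least 200 bp of overlap was asked for, and with peaks under the median score of each list dropped it was 24.7% of the elements then found.

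Because the elements ranked lower than regions acetylated at both stages, H3K4me1 was compared within quartiles of the fetal H3K27ac score. In the lowest quartile 11.5% (10.5 to 12.6) of fetal-only elements had adult H3K4me1, against 40.5% (36.2 to 44.8) of regions acetylated at both stages. The shares were 19.1% and 42.9% in the next quartile, and 26.7% and 54.7% in the third. In the highest quartile they were 39.3% (28.8 to 50.5) of 84 elements and 68.7% (64.9 to 72.2) of 638 regions. The adult H3K4me1 share was thus lower for fetal-only elements in each quartile. The counting intervals did not overlap in any of the 4, which is not a test between the classes. The rule sets the classes apart by adult H3K27ac, and the quartiles match the fetal score only. Width still differed, with medians of 1214 and 1734 bp in the lowest quartile. For fetal H3K4me1 the gap between the classes was smaller. The shares were 79.2% (77.9 to 80.6) and 91.7% (89.0 to 93.9) in the lowest quartile and 97.6% (91.7 to 99.7) and 99.5% (98.6 to 99.9) in the highest, where the intervals overlapped.

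**Figure D2:**
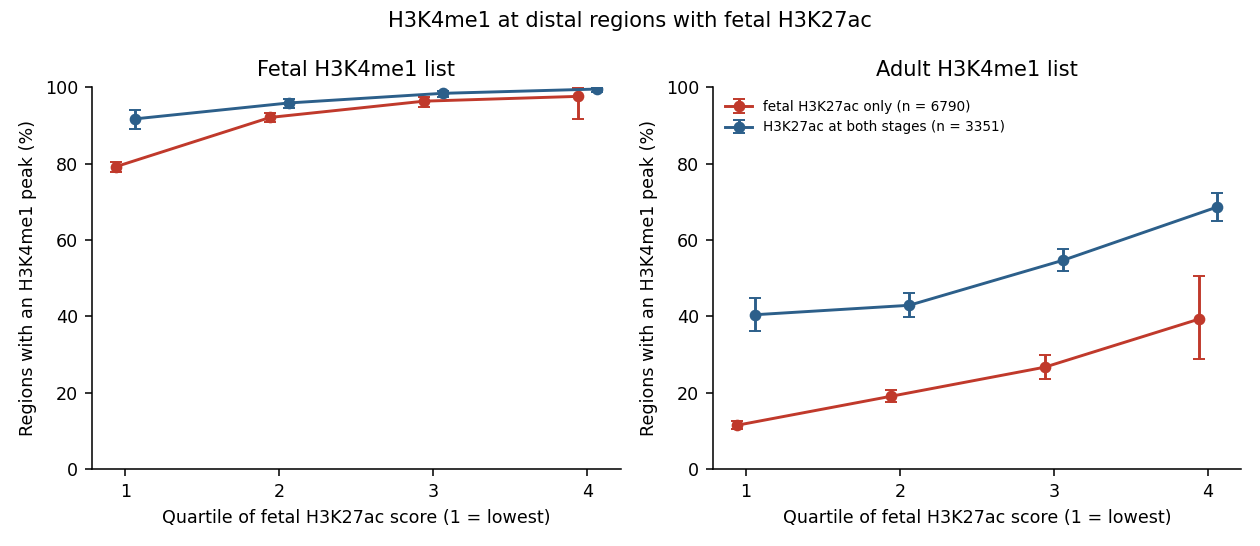
Share of distal regions with an H3K4me1 peak (y axis, %) in the fetal list (left) and the adult list (right) by quartile of the fetal H3K27ac score (x axis); points are shares, bars are 95% Clopper-Pearson intervals. Adult H3K4me1 rises from 11.5% to 39.3% of fetal-only elements and from 40.5% to 68.7% of regions acetylated at both stages.

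The same comparison was made by region width, since a wider region has more room for a peak. At widths above 1000 and up to 2000 bp, adult H3K4me1 was at 11.9% (10.8 to 13.0) of fetal-only elements and 27.1% (24.0 to 30.3) of regions acetylated at both stages. Above 2000 and up to 3000 bp the shares were 25.5% (23.4 to 27.7) and 47.2% (44.4 to 50.1), and above 3000 bp 43.0% (38.8 to 47.3) and 71.0% (68.4 to 73.4). The order of the classes was the same at each of these widths. Up to 1000 bp there were 1018 elements, of which 3.73% had adult H3K4me1, and 22 regions acetylated at both stages. At widths above 1000 and up to 2000 bp, fetal H3K4me1 was at 87.7% of elements and 91.5% of regions acetylated at both stages. Above 2000 and up to 3000 bp its shares were 97.2% (96.3 to 98.0) and 98.1% (97.2 to 98.8). Above 3000 bp they were 99.1% (97.8 to 99.7) and 99.2% (98.5 to 99.6), so that the classes differed little at those widths.

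The 1105 elements with adult H3K4me1 stood apart from the other 5685 in several measures. Their median width was 2179 bp against 1524 bp, and their median fetal H3K27ac score 152 against 104. H3K4me1 peaks count in the width and a wider region has more room for one, so that width and mark are not independent. Fetal H3K4me1 was present at 98.6% (97.7 to 99.2) of them and at 83.5% (82.5 to 84.4) of the others. They lay nearer to adult H3K27ac, with a median gap of 13487 bp against 20375 bp, while the median gap to fetal H3K4me3 was much the same at 25677 and 26754 bp. Adult H3K4me1 covered a median of 214 bp of an element that had it, and fetal H3K4me1 a median of 1147 bp. Peaks were shorter throughout the adult H3K4me1 list, with a median width of 193 bp against 430 bp in the fetal list. At 5669 of all 6790 elements, or 83.5% (82.6 to 84.4), none of the 4 adult lists had a peak, which follows largely from the rule, since it leaves out adult H3K27ac and H3K4me3.

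The 955 elements without fetal H3K4me1 ranked lower for H3K27ac and were narrower than the rest. Their median score was 76.7, at percentile 13.0 of the fetal H3K27ac list, and their median width 1013 bp. Elements with fetal H3K4me1 had a median score of 120.2 and a median width of 1717 bp. H3K4me1 peaks count in the width, so that the difference in width follows in part from the merging. The elements without it also lay farther from fetal H3K4me3, with a median gap of 37681 bp against 25241 bp. Where fetal H3K4me1 was present, its highest score in an element stood at a median percentile of 80.7 in the fetal H3K4me1 list. The median percentile was 92.7 for regions acetylated at both stages and 74.9 for adult-only regions, so that a high H3K4me1 rank was shared by the 3 classes. The H3K4me1 list is far longer and includes many short peaks, so that the percentiles are not on a common scale. Spearman's rho between the H3K27ac and H3K4me1 scores was 0.241 across these 5835 elements.

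Fetal H3K4me1 was centred on the H3K27ac peak. At the midpoint of the highest-scoring H3K27ac peak, 65.9% (64.7 to 67.0) of the elements were covered by a fetal H3K4me1 peak. The share fell to 51.3% and 51.7% at 500 bp on either side and to 28.3% and 28.4% at 1000 bp. It levelled off at 12.1% and 11.9% at 4000 bp. Regions acetylated at both stages had a flatter top, with 79.9% at the midpoint and 76.8% and 76.3% at 500 bp. Their highest-scoring H3K27ac peaks were wider, with a median of 2259 bp against 1364 bp. A point at 500 bp thus lay nearer the peak edge in fetal-only elements. Of the elements with fetal H3K4me1, 3068 had 1 such peak, 2006 had 2 and 761 had 3 or more. The mark stayed within the H3K27ac peak at 41.5% of them, passed 1 edge at 40.4% and passed both at 18.0%.

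Where present, adult H3K4me1 covered the H3K27ac midpoint at 204 of 1105 elements, or 18.5% (16.2 to 20.9), and fetal H3K4me1 at 4473 of 5835, or 76.7% (75.6 to 77.7). The mark covered a median of 214 bp of such an element in the adult and 1147 bp in the fetal list. Shorter cover meets a given point less often, so that these shares do not measure position alone. Adult H3K4me1 covered the midpoint at 3.004% (2.61 to 3.44) of all fetal-only elements, against 0.589% at 4000 bp on both sides. In regions acetylated at both stages it covered 8.18% (7.27 to 9.16) at the midpoint and 9.43% and 8.68% at 500 bp on either side.

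**Figure D3:**
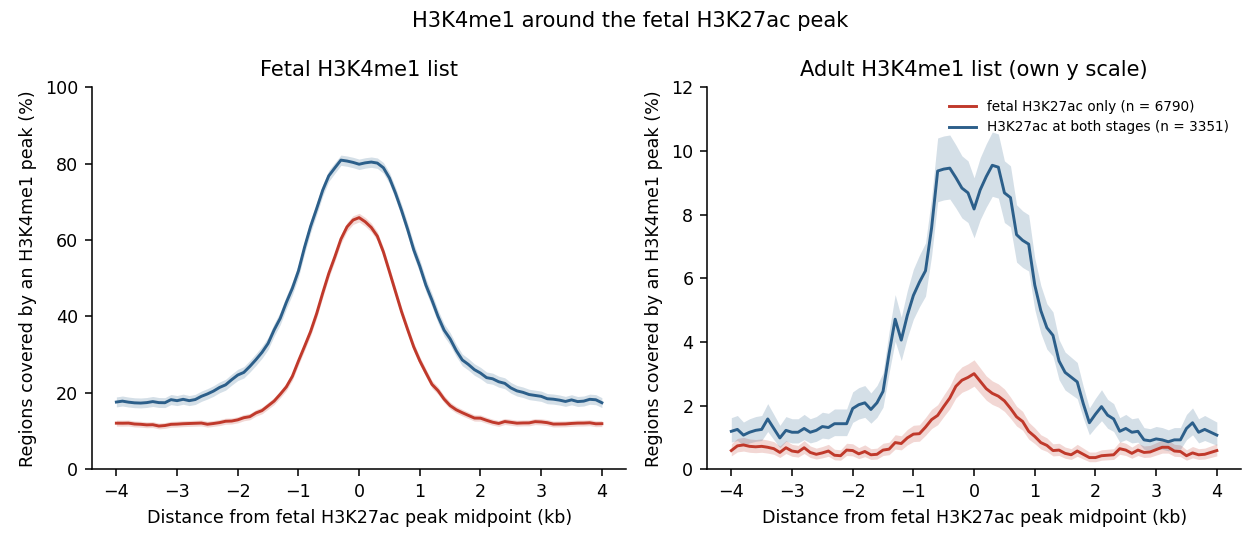
Share of distal regions covered by an H3K4me1 peak (y axis, %) at each distance from the midpoint of the fetal H3K27ac peak (x axis, kb, in steps of 100 bp) for the fetal (left) and adult (right) list; bands are 95% Clopper-Pearson intervals, and the right panel has its own y scale. Fetal-only elements peak at the midpoint in both lists, at 65.9% and 3.004%.

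H3K27me3 was rare at the elements at both stages. In the fetal list it was at 63 elements, or 0.928% (0.714 to 1.19), against 0.849% of all acetylated distal regions. In the adult list it was at 21 elements, or 0.309% (0.192 to 0.472), against 0.271% of all acetylated distal regions. The elements are themselves most of those regions, so that nearness to these shares is largely built in. Fetal H3K27me3 was at 0.507% (0.296 to 0.811) of regions acetylated at both stages and 1.51% (0.828 to 2.52) of adult-only regions. For adult H3K27me3 the shares were 0.0895% (0.0185 to 0.261) and 0.647% (0.238 to 1.40). These intervals overlapped those of the elements. Distal regions without H3K27ac, which were much narrower with a median of 355 bp, had fetal H3K27me3 at 6.84% (6.61 to 7.08) and adult H3K27me3 at 4.56% (4.37 to 4.76). Adult H3K27me3 peaks were more numerous but shorter, with a median width of 280 bp against 1408 bp in the fetal list. They covered 9.31 Mb against 37.8 Mb, and the part of this in the difference between stages was not tested. Of the elements, 45 had H3K27me3 in the fetal list alone, 18 at both stages and 3 in the adult list alone. The last state, an adult H3K27me3 peak where the fetal list had H3K27ac and no H3K27me3, thus made up 0.0442% (0.00911 to 0.129) of the elements.

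The 66 elements with H3K27me3 at 1 stage or both had a median H3K27ac score of 108, against 110.3 for the rest. Fetal H3K4me1 was at 60 of them and adult H3K4me1 at 21, or 31.8% (20.9 to 44.4). At 12 of them the whole element lay inside fetal H3K27me3, and at 29 at least 50% of it did. At 51 of them fetal H3K27me3 touched the H3K27ac peak itself. Over all elements, coverage by fetal H3K27me3 was lowest at the H3K27ac midpoint, at 0.383% (0.2503 to 0.561), and was 1.16% and 0.854% at 4000 bp to either side. The widest element with H3K27me3 in the fetal list only was chr5:66914244-66917617 (3374 bp, score 523), where 2 fetal H3K27me3 peaks covered 1792 bp and adult H3K4me1 161 bp. The widest with it in the adult list only was chr12:86187098-86189437 (2340 bp, score 159), where the adult peak covered 155 bp. That element lay 27485 bp from fetal and 71703 bp from adult H3K4me3.

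The fetal-only elements lay farther from H3K4me3 than the other acetylated distal regions. Their median gap to the nearest fetal H3K4me3 peak was 26574.5 bp, with quartiles of 9909 and 65446 bp. The median was 19022 bp for regions acetylated at both stages and 17236 bp for those acetylated in the adult list only. Measured to adult H3K4me3 the medians were 27276.5, 19348 and 16240 bp, in the same order. Within 10000 bp of fetal H3K4me3 were 25.2% (24.1 to 26.2) of the fetal-only elements, 32.0% (30.4 to 33.6) of the regions acetylated at both stages and 37.1% (34.0 to 40.3) of the adult-only regions. Beyond 100000 bp were 14.9% (14.1 to 15.8), 8.80% (7.87 to 9.81) and 6.36% (4.88 to 8.13). The farthest element, at chr5:60386896-60388036 (1141 bp, score 97.1), was 2272935 bp from fetal H3K4me3 and had 346 bp of fetal H3K4me1. The H3K27ac score and this distance were nearly unrelated (Spearman's rho 0.0394 across 6790 elements).

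**Figure D4:**
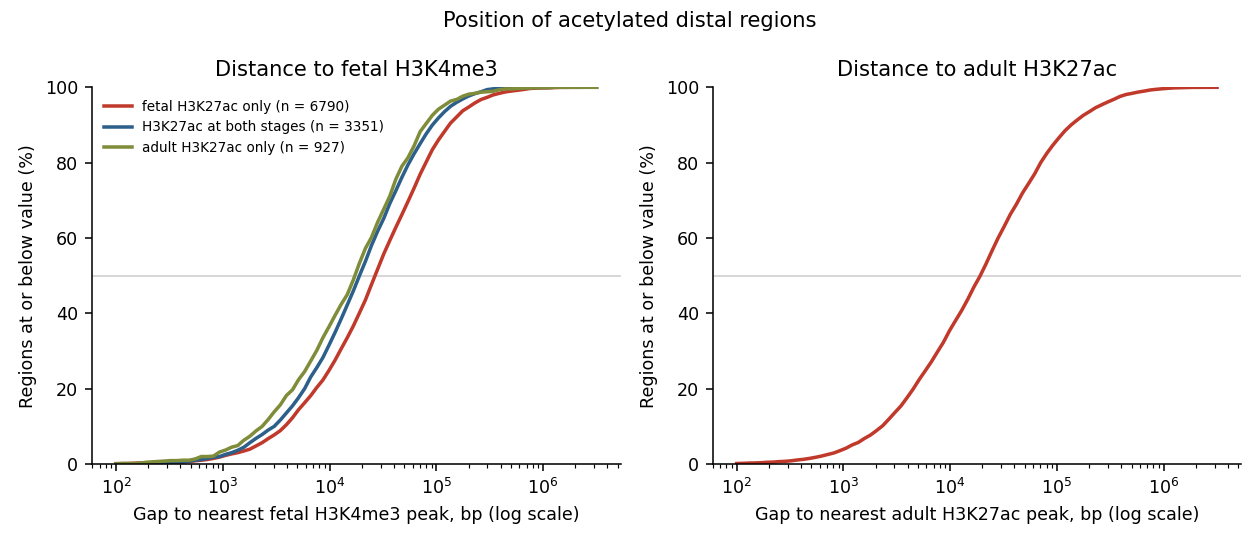
Cumulative share of distal regions (y axis, %) by the gap in bp (x axis, log scale) to the nearest fetal H3K4me3 peak for 3 classes (left) and to the nearest adult H3K27ac peak for fetal-only elements (right); the grey line marks the median. Fetal-only elements have a median gap of 26574.5 bp to fetal H3K4me3, to the right of the other classes at 19022 and 17236 bp, and of 19077.5 bp to adult H3K27ac.

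The H3K4me3 peak nearest to a fetal-only element was mostly one with H3K27ac at both stages. This held for 75.6% (74.6 to 76.6) of the elements, against 83.7% (82.4 to 84.9) of regions acetylated at both stages, and 68.8% of all fetal H3K4me3 peaks were of this kind. The nearest H3K4me3 peak had H3K27ac in the fetal list only for 8.56% (7.90 to 9.25) of the fetal-only elements, 4.98% (4.27 to 5.78) of the regions acetylated at both stages and 2.48% (1.58 to 3.70) of the adult-only regions. Over all 16567 fetal H3K4me3 peaks that state made up 5.73%. For H3K27ac in the adult list only the order was the opposite, with 3.05% (2.65 to 3.49), 3.37% (2.79 to 4.04) and 4.96% (3.66 to 6.56), although these intervals overlapped in part. All 3 were below the 5.24% over all fetal H3K4me3 peaks, which lies within the interval of the adult-only regions. The nearest H3K4me3 peak also carried fetal H3K27me3, as in bivalent promoters, for 18.0% (17.1 to 18.98) of the fetal-only elements, 12.03% (10.9 to 13.2) of the regions acetylated at both stages and 14.2% (12.1 to 16.7) of the adult-only regions. All 3 shares were below the 22.6% of all fetal H3K4me3 peaks that carried fetal H3K27me3. Restricting to elements within 50000 bp of H3K4me3 gave 8.99% (8.18 to 9.85) and 4.51% (3.74 to 5.38) for H3K27ac in the fetal list only. The nearest peak by distance need not be the promoter an element acts on.

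The 6790 elements were assigned in this way to 4064 different H3K4me3 peaks, so that the shares above are not over independent promoters. Of these peaks, 2556 were nearest to 1 element, 852 to 2 and 355 to 3. The peak nearest to most, 13 elements, was at chr13:44768547-44769685, with gaps of 34294 to 332317 bp. It had H3K27ac in the fetal list and none in the adult list, H3K4me3 at both stages and no fetal H3K27me3. The next, with 10 elements, was at chr13:111184304-111186335 and had H3K27ac at both stages and fetal H3K27me3. Both were singled out after their values were seen.

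The gap from each element to the nearest adult H3K27ac peak was also measured, with no other class set beside it. The nearest peak can lie at H3K4me3, since 74.0% of all fetal H3K4me3 peaks had adult H3K27ac. An adult H3K27ac peak lay within 1000 bp of 271 elements, or 3.99% (3.54 to 4.48), and within 5000 bp of 1493, or 22.0% (21.0 to 23.0). The median gap was 19077.5 bp, and 13.9% (13.1 to 14.8) of the elements were more than 100000 bp from any adult H3K27ac peak. The elements just inside the rule were chr10:19334580-19335497 (918 bp, score 106), at 16 bp from an adult H3K27ac peak and with adult H3K4me1 over 318 bp, and chr5:22891500-22892096 (597 bp, score 50.9), at 18 bp. The latter had no H3K4me1 and lay 130 bp from fetal H3K4me3. The regions just outside it, with the least adult H3K27ac, were chr3:108824653-108826146 and chr2:18869861-18871433. They held adult H3K27ac over 591 and 615 bp with adult scores of 54.9 and 51.5, near the floor of the list, and fetal scores of 91.5 and 89.9. In 12 of the 3351 regions acetylated at both stages the fetal and adult H3K27ac peaks did not touch and were joined by H3K4me1 alone.

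A minority of the elements lay close to another of their kind. With elements linked where the gap was at most 12500 bp, 2309 of 6790, or 34.0% (32.9 to 35.1), were in 990 clusters of 2 or more. Of these clusters 758 had 2 elements, 170 had 3 and 62 had 4 or more, with at most 7. The share was 31.1% (29.5 to 32.7) for regions acetylated at both stages and 16.8% (14.5 to 19.4) for adult-only regions, but it moves with the number of regions, which was 3351 and 927. The next acetylated distal region along the chromosome was therefore also examined. The nearest one was another fetal-only element for 66.4% (65.3 to 67.5) of the elements, where 61.3% of all acetylated distal regions were fetal only. For regions acetylated at both stages the nearest was of their own class for 37.6% (36.0 to 39.3), where 30.3% of all were, and for adult-only regions for 20.7% (18.1 to 23.5), where 8.38% of all were.

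Clustered and single elements had similar medians. Median scores were 113 and 109, median widths 1664 and 1595 bp, and median gaps to fetal H3K4me3 25937 and 26899 bp. Adult H3K4me1 was at 16.9% (15.4 to 18.5) of clustered and 16.0% (14.9 to 17.1) of single elements. The 62 clusters of 4 or more spanned 8976 to 49820 bp with a median of 25857 bp. Within their spans 49 had no H3K4me3 peak of either stage, 35 no adult H3K27ac peak and 39 at least 1 adult H3K4me1 peak. No span held an H3K27me3 peak of either stage. Their 283 elements had an adult H3K27ac peak within 5000 bp at 30.7% (25.4 to 36.5), against 21.9% (20.7 to 23.1) of single elements.

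The cluster with the most elements, 7, was at chr1:178748638-178764011 and spanned 15374 bp. Its elements were 838 to 2150 bp wide with scores of 62.9 to 152, and 6 of 7 had fetal H3K4me1. No adult peak of any of the 4 marks lay within the span. On either side stood an H3K4me3 peak with H3K27ac at both stages, the nearer of them 1026 bp away. The cluster at chr4:32429249-32476556 held 6 elements over 47308 bp, all with fetal H3K4me1, 4 adult H3K4me1 peaks and 1 adult H3K27ac peak, and lay 90759 bp from fetal H3K4me3. The cluster at chr7:139514072-139559497 held 6 elements over 45426 bp with scores of 59.2 to 623. All 6 had fetal H3K4me1 and 3 had adult H3K4me1, with no adult H3K27ac in the span.

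**Figure D5:**
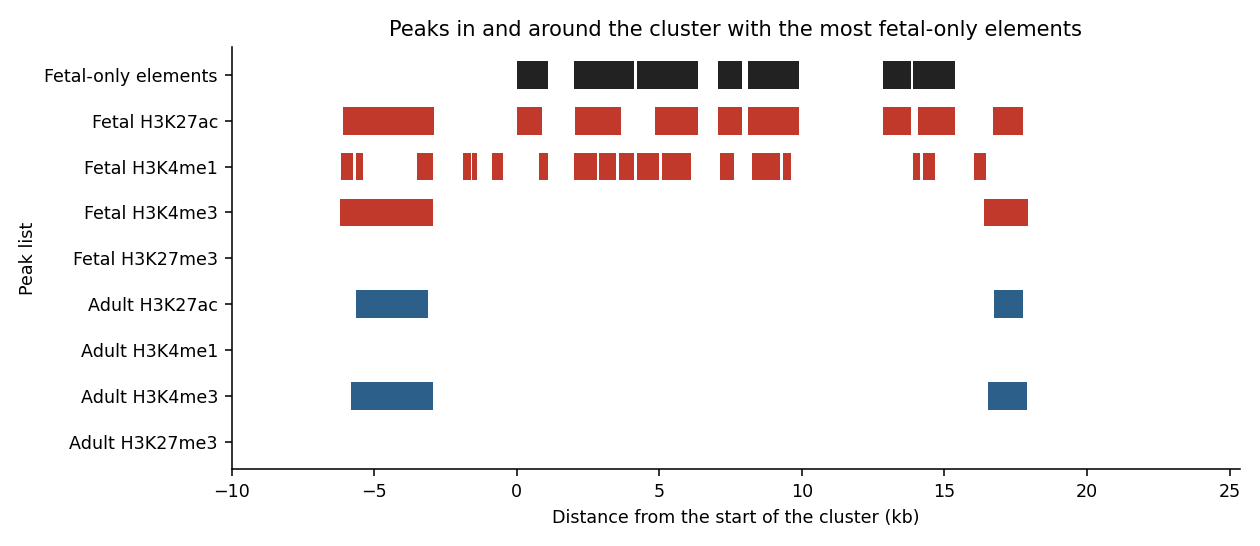
Peaks of the 8 lists (rows) in and around the cluster with the most fetal-only elements, drawn to scale as distance from the start of the cluster (x axis, kb); black bars are the 7 elements, red bars fetal peaks and blue bars adult peaks. The 7 elements have fetal H3K27ac and no adult peak, and the H3K4me3 peaks on both sides carry H3K27ac at both stages.

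On a larger scale the elements were spread over all 19 chromosomes, from 208 on chromosome 19 to 537 on chromosome 2. The fetal-only share of acetylated distal regions ranged from 53.2% (49.7 to 56.7) on chromosome 11 to 68.9% (65.4 to 72.2) on chromosome 1. These are the lowest and highest of the 19, picked by their values, and the share is the one the rule defines. In bins of 1 Mb, 1570 bins held at least 1 element with a median of 3. The 136 bins with 10 or more held 1619 elements. The fullest bin, on chromosome 4 from 134000001 to 135000000, had 22 fetal-only elements beside 15 regions acetylated at both stages and 2 in the adult list only. Other bins held few regions of the other classes, such as chromosome 13 from 44000001 to 45000000, with 17, 5 and 0. The H3K4me3 peak nearest to most elements lies in that bin. These bins were singled out after their values were seen.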

How the data were processed

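Reads were aligned with Bowtie2 2.2.2 to mm9, per the submitters' processing notes. The deposited lists name their peaks with a MACS prefix; the caller's version, settings and control are not given in the sources used here. The score in column 5 of each deposited list is the authors' own value per peak, and the lists are named as combined, taken here as pooled replicates. The elements and comparisons were chosen with earlier results of these data known. No gene annotation or genome of mm9 was used, so no gene name and no sequence is given.

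From the lists, peaks were merged, overlapped (at least 1 bp), ranked and measured for gaps in bp. Depth is unknown. Clusters used a linking gap of 12.5 kb. Shares have 95% Clopper-Pearson intervals for counting error only, and no test was possible. Regions named are the 5 widest, the 5 with the highest score, the 3 largest clusters, the widest with each H3K27me3 or H3K4me1 state, the farthest from H3K4me3 and those nearest the limits of the rule; others are marked as chosen later. Alternatives changed the peaks used, the merging, the overlap and the linking gap. The interval code was tested on simulated data, with 0 mismatches in 453 cases and 200 of 200 planted shared regions recovered. Python 3.11.15, numpy 2.4.6, pandas 2.3.3, scipy 1.17.1 and matplotlib 3.10.9 were used.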

Additional observations from a re-analysis of the deposited data

Results flagged for a closer look

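Peaks outside chromosomes 1 to 19 entered none of the comparisons above. Those on X and Y were added in 1 of the alternatives below, where the fetal-only share of acetylated distal regions was 61.4%. On the X chromosome 59 distal regions met the same rule, of 81 acetylated there. On unplaced contigs 4 did, of 8. On Y there was none among 3 merged regions.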

How the results depend on the processing

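No paired analysis was possible because there is 1 list per mark and stage, named as combined and taken here as pooled over replicates. Leaving out a replicate was not run for that reason, and the depth behind the lists is unknown. Of 70 values recomputed under alternatives, 35 stayed within the 95% interval of the reported value. The others follow, and the cause was not tested except where the alternative's own construction sets it.

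The setting with only peaks at or above the median score of their list also drops H3K4me3 and adult H3K27ac peaks. Regions with lower-scoring peaks of these marks could thus enter the class, which then held 3131 elements. Of the 6790 reported elements, 797 and 84 scored in the third and highest quartiles of the fetal H3K27ac list. Most of the 3131 were therefore not reported elements. The fetal-only share of acetylated distal regions was 68.0% in this setting. The median width was 2768 bp, the median score 478 and the median gap to fetal H3K4me3 41937 bp. Fetal and adult H3K4me1 were then at 89.5% and 24.7%, fetal and adult H3K27me3 at 1.76% and 1.05%, clusters held 23.2%, and 11.9% lay within 5 kb of adult H3K27ac. With the longer list of each mark trimmed to its highest scores to match the shorter, the share was 44.0%, the width 1979 bp, the score 198 and the gap 28747 bp. Fetal and adult H3K4me1 were at 42.5% and 20.9%, adult H3K27me3 at 0.175% and clusters held 22.2%.

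With peaks merged within 1 kb the width was 1897 bp, the score 115, the gap 29115 bp, fetal and adult H3K4me1 88.6% and 17.7%, the clustered share 23.7% and the share within 5 kb of adult H3K27ac 14.9%. With regions from H3K27ac peaks alone the width was 1346 bp, adult H3K4me1 15.3%, the clustered share 36.4% and the share within 5 kb 23.2%. Leaving out elements within 1 kb of H3K4me3 or adult H3K27ac gave a gap of 28002 bp and 18.4% within 5 kb. Adult H3K4me1 was at 9.19% with at least 200 bp of overlap and at 15.1% on the H3K27ac peak itself. Linking gaps of 5 and 25 kb put 21.3% and 48.2% in clusters.

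The order of fetal-only elements and regions acetylated at both stages held in 6 of 6 settings for width, score, fetal and adult H3K4me1, adult H3K27me3 and the gap to H3K4me3. Adult H3K27me3 was higher at fetal-only elements, but on 21 of 6790 elements against 3 of 3351 regions, with overlapping intervals. With the better-scoring peaks its shares were 1.05% and 1.02%. For fetal H3K27me3 the order held in 5 of 6: with the better-scoring peaks the shares were 1.76% and 2.42%.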
